A study of Arabidopsis thaliana with 4 samples.

Results

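The genes described here are 15 Arabidopsis thaliana genes of calcium signalling, 8 calmodulin-like calcium sensors and 7 glutamate receptor-like channels, out of 13350 genes that a probe set of the ATH1 array names on its own. They were taken by symbol, as probe sets with exactly 1 gene in the platform's probe-to-gene table whose symbol starts with CML, CAM, CPK, CDPK, CRK, CIPK, CBL, CNGC, GLR, ACA or CAX followed by a digit, plus the calmodulin-like gene AT2G41090. Only 2 of these 11 families had a member, the CML and GLR genes, so no calcium-dependent or CBL-interacting kinase, no cyclic nucleotide-gated channel and no calcium pump or exchanger of those names is analysed here. Of 182 RefSeq genes with such a symbol, 14 had a probe set of their own. Each member had 1 probe set.

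The series compared sfr6, a mutant obtained with the mutagen EMS in the Col-0 background (such lines can carry further mutations), with wild-type Col-0. The 4 groups were sfr6 in dark, sfr6 in light, wild type in dark and wild type in light, with 1 array and therefore no replicate in each. All plants were grown for 7 days and then spent 24 h in a cabinet at 240 microEinsteins with 16 h light and 8 h dark, before 3 h under foil for the dark groups or 3 h more in the light for the others. No sfr6 allele number and no number of pooled plants was used here. The tissue label reads cell culture, whereas the treatment text speaks of plants on agar. All 5 leaf markers with a probe set were over the floor on all 4 arrays. The root gene PYK10 was too, at 1823 in sfr6 in dark, 2562 in sfr6 in light, 2081 in wild type in dark and 3004 in wild type in light. The other root markers were weaker: EXPA7 lay between 23.3 in wild type in dark and 54.6 in sfr6 in light, EXPA18 was over the floor in light only, and XTH26 on no array.

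Calcium acts in plant cells as a second messenger: channels let it into the cytosol in brief waves, and pumps and exchangers carry it out again. Calmodulin-like proteins bind it through EF-hands, change shape and pass the signal to partner proteins, and many of their genes are quickly induced by touch, wounding, pathogens or low oxygen. Glutamate receptor-like proteins form amino acid-gated channels of the plasma membrane and of internal membranes, best known for the calcium waves that travel from a wound. SFR6 encodes the Mediator subunit MED16, and Mediator links DNA-bound regulators to RNA polymerase II.

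The values are MAS5 signals, which are linear intensities, and the trimmed mean of each array was 100.01. A floor was set at the 40th percentile of all signals, 22.1, and lower signals were raised to it before log2 was taken, so where 1 of both signals was under the floor the fold can only be bounded, which the words at least mark. Over the floor were 13387 of 22746 probe sets for sfr6 in dark, 14006 for sfr6 in light, 13229 for wild type in dark and 13968 for wild type in light. The 25S ribosomal RNA control read 1321, 120, 364 and 122 in the same order. The 3' to 5' ratio of a first GAPDH control pair was 1.105 in sfr6 in dark, 1.09 in sfr6 in light, 1.35 in wild type in dark and 1.13 in wild type in light, and that of another GAPDH pair was 0.971, 0.881, 0.949 and 0.989.

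Of the 15 genes, 10 reached the floor on at least 1 array, 7 sensors and 3 channels, and these entered the comparisons. That share, 66.7%, was close to the 66.5% of all 22746 probe sets. AT2G41090, CML42, GLR3.3 and GLR3.6 were over the floor on all 4 arrays. The other 5 genes, CML37, GLR1.4, GLR2.7, GLR2.8 and GLR2.9, stayed under it on every array, with signals between 0.378 and 19.0, and no fold is given for them. CML37 is a calmodulin-like gene tied to wound and drought signalling, and GLR2.7, GLR2.8 and GLR2.9, which lie next to each other in the genome, are tied to calcium entry in pattern-triggered immunity. Their low signals do not show that the transcripts were absent.

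**Figure D1:**
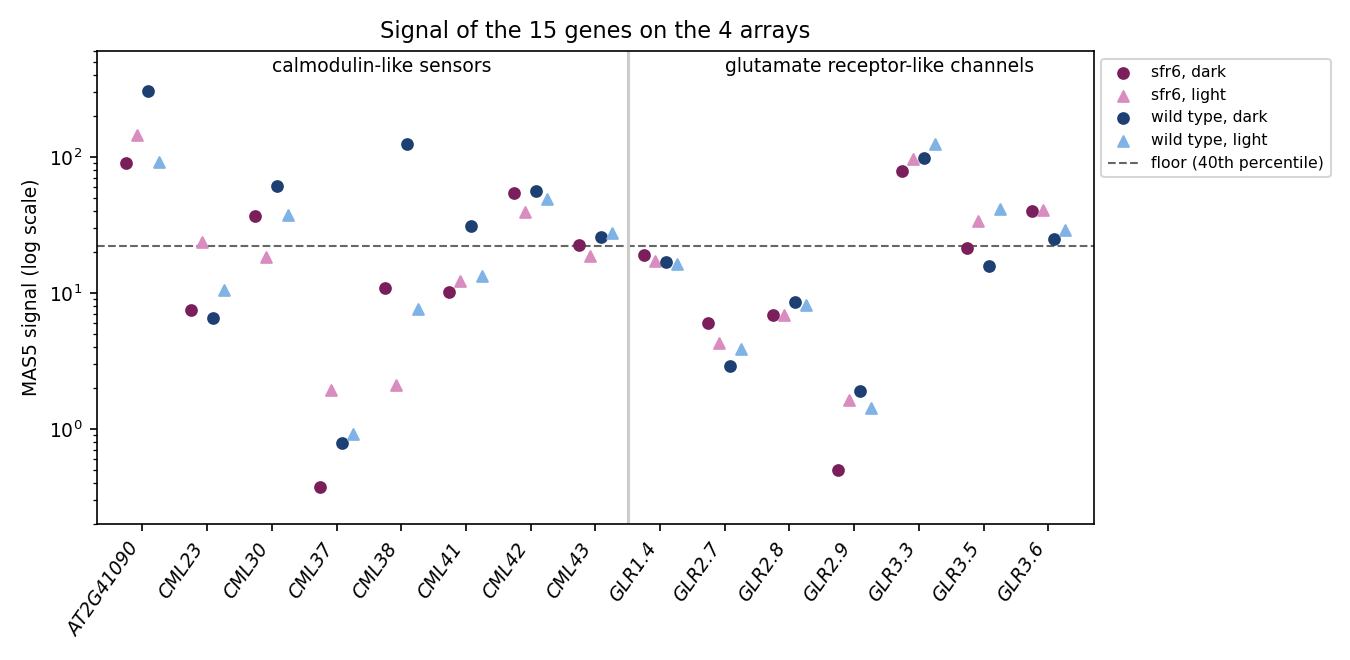
MAS5 signal on a log axis of each of the 15 genes on the 4 arrays, 1 point per array, with the floor of 22.1 as a dashed line. CML38 and CML41 stand over the floor only on the array of wild type in dark, while CML37, GLR1.4, GLR2.7, GLR2.8 and GLR2.9 lie under it throughout.

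The first comparison asked which of the genes responded when both genotypes were kept dark for 3 h. CML30, a sensor, rose and GLR3.5, a channel, fell: CML30 was at least 1.66-fold higher in dark than in light in sfr6 and 1.62-fold higher in wild type, while GLR3.5 was at least 1.53-fold lower in sfr6 and at least 1.86-fold lower in wild type. The average dark effect was tested with limma across 15121 probe sets. By that test 15.4% of all probe sets rose and 17.8% fell, so 1 of 10 in either direction is no more than the background. The median average effect of the 10 genes was 0.10 on the log2 scale, beside -0.05 for all probe sets. CML38 and CML41 entered the 10 only through the array of wild type in dark, so this median cannot be read as a shift. Within a genotype, 0 of the 10 genes were at least 2-fold higher or lower in dark in sfr6, beside 6.6% and 6.62% of all probe sets. In wild type 2 were higher and 0 lower, beside 6.21% and 6.9%. The 2 were AT2G41090, added by name with earlier results known, and CML38, which passed the floor only in wild type in dark. Their count therefore cannot be read as an excess.

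CML30, a calmodulin-like gene whose product has been placed in mitochondria, read 36.7 in dark and 18.5 in light in sfr6, and 61.0 in dark and 37.7 in light in wild type. Each dark signal was higher than the light signal of the same genotype, and each sfr6 signal lower than the wild-type one. Its average dark effect was 0.71 ± 0.17 on the log2 scale (SE, adjusted p 0.023). A floor at the 60th percentile, which a single signal of the gene passes, gave 0.04 (adjusted p 0.80, the highest over 7 alternatives, with 0.014 the lowest).

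CML42, known for its part in trichome branching and in defence against herbivores, read 54.3 in dark and 39.6 in light in sfr6, and 55.7 in dark and 48.6 in light in wild type. Its dark signals were higher than its light signals, by 1.37-fold in sfr6 and 1.15-fold in wild type, but it did not pass the test (0.33 ± 0.18, adjusted p 0.22). CML43, a gene known from root tips and salicylic acid treatment, read 22.7 in dark and 18.6 in light in sfr6, and 25.9 in dark and 27.8 in light in wild type. Its 4 signals lay close to the floor and its average effect was -0.03 ± 0.15 (adjusted p 0.89). CML23, a relative of the touch-induced CML24, reached the floor once, at 23.6 in sfr6 in light, against 7.54 in sfr6 in dark. In wild type it read 6.55 in dark and 10.5 in light, and both light signals were above both dark signals. With most of that range under the floor, its average effect was -0.05 ± 0.14 (adjusted p 0.83), while a floor at the 20th percentile gave -1.09 (adjusted p 0.046, the lowest over 6 alternatives, with 0.94 the highest).

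The channel genes over the floor were all of the GLR3 clade. GLR3.5, a gene with parts in stomatal closure and seed germination, read 21.6 in dark and 33.8 in light in sfr6, and 15.8 in dark and 41.2 in light in wild type. Both dark signals were under the floor and both light signals over it, and the average effect was -0.75 ± 0.17 (adjusted p 0.018). GLR3.3, which carries wound-induced calcium waves together with GLR3.6, read 78.0 in dark and 96.4 in light in sfr6, and 98.1 in dark and 123 in light in wild type. It was lower in dark by about the same factor in both genotypes, 1.24-fold in sfr6 and 1.26-fold in wild type, without passing the test (-0.32 ± 0.15, adjusted p 0.16). GLR3.6 read 39.8 in dark and 40.8 in light in sfr6, and 24.8 in dark and 29.2 in light in wild type. Dark and light were nearly level in sfr6, and the average effect was -0.14 ± 0.17 (adjusted p 0.57). The average effect of all 3 was below 0 on the deposited scale and after median or spike-in centring, but that of GLR3.6 was 0.01 after quantile normalization.

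Some markers of root tissue fell beside GLR3.5, as did 17.8% of all probe sets. Of 5 leaf markers, 1 fell, LHCB4.3 (-0.41 ± 0.11, adjusted p 0.034), and 1 rose, PORB (1.46 ± 0.12, adjusted p 0.00069). Of 4 root markers with a probe set, 2 fell, PYK10 and EXPA18, EXPA7 did not pass (-0.61 ± 0.21, adjusted p 0.074), and XTH26 was under the floor on every array. Their summed signal, most of it from PYK10, was 1865 in dark and 2660 in light in sfr6, and 2123 in dark and 3069 in light in wild type. The part of root tissue in the difference of GLR3.5 was not tested, and in such whole-tissue RNA fewer cells of a type and less RNA per cell cannot be told apart.

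**Figure D2:**
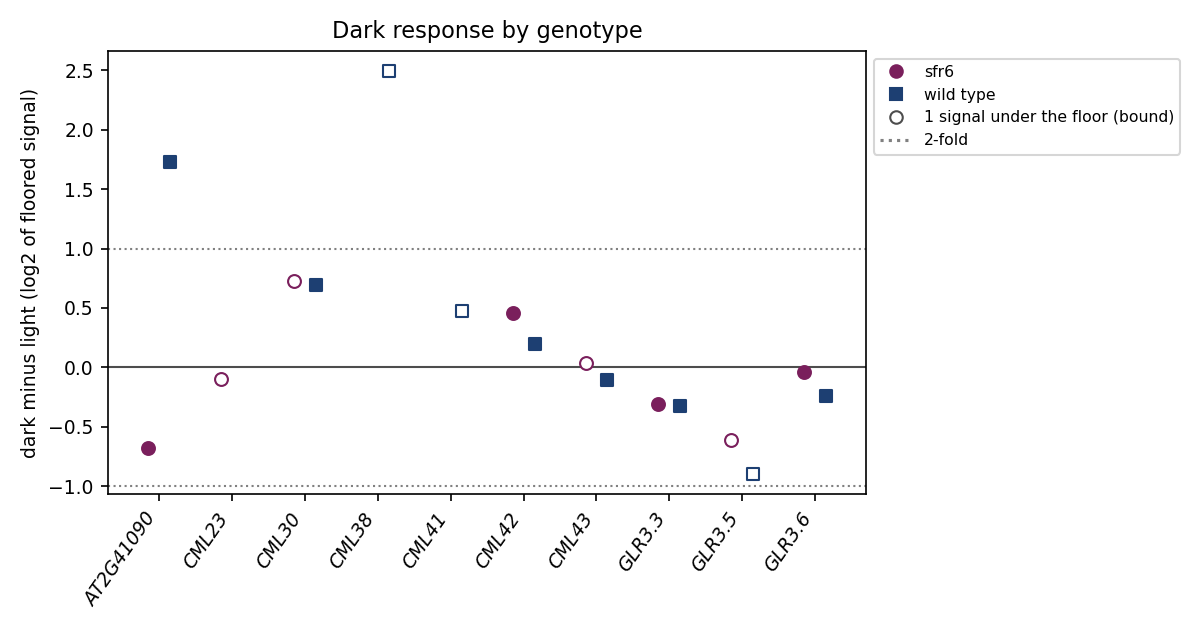
Dark minus light, as log2 of floored signals, for the 10 genes over the floor on some array, with sfr6 to the left of wild type, open symbols where 1 of both signals lies under the floor, and dotted lines at 2-fold. A point is left out where both signals lie under the floor. GLR3.3 has like values in both genotypes, whereas AT2G41090 lies at -0.68 in sfr6 and 1.73 in wild type, and CML38 at 2.49 in wild type with no point in sfr6.

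The next question was how far the dark response of sfr6 departs from that of wild type. AT2G41090 and CML38 had lower dark responses in sfr6 than in wild type, by more than 2-fold, while the responses of the other 8 genes differed by less on floored signals. This difference leaves no residual degree of freedom and was not tested. A response at least 2-fold lower in sfr6 was seen for 1.48% of all probe sets and for 2 of the 10 genes, and one at least 2-fold higher for 1.08% and for 0 of 10. Both genes were known from earlier results of these data, and CML38 passed the floor only in wild type in dark. The 2 of 10 therefore cannot be read as an excess.

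AT2G41090, the calmodulin-like gene added by name, read 89.5 in dark and 143 in light in sfr6, and 306 in dark and 92.0 in light in wild type. The wild-type dark array stood above the other 3, and the sfr6 dark signal was the lowest of the 4, next to that of wild type in light. All 4 signals were over the floor, so the folds are measured ones: AT2G41090 was 1.60-fold lower in dark in sfr6, against 3.32-fold higher in dark in wild type. The response in sfr6 minus that in wild type was -2.41 on the log2 scale, the 9th lowest of 15121. AT2G41090 was added with earlier results of these data known, so its rank cannot be read as support. The alternative floors and the filter for all 4 arrays could not change the value of -2.41, because the lowest signal, 89.5, was over the highest floor, 58.1. The response difference was -2.17 without a floor and -2.45 after quantile normalization. After median centring it was -2.44, and after spike-in centring -2.70. The average dark effect, in which the opposite responses are added, was 0.53 ± 0.50 (adjusted p 0.47).

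CML38, a sensor gene strongly induced by low oxygen and wounding whose product gathers in stress granules, read 10.9 in dark and 2.11 in light in sfr6, and 125 in dark and 7.59 in light in wild type. A single array, that of wild type in dark, was over the floor. No fold is given for sfr6, where both signals were under the floor, and in wild type CML38 was at least 5.63-fold higher in dark. As deposited, the ratio of dark to light was 5.17 in sfr6 and 16.4 in wild type, so the sfr6 signals under the floor also stood in the order dark over light. The size of the response difference therefore depends on the floor: it was -2.49 on floored signals, where the sfr6 response is set to 0, -1.101 for a floor at the 60th percentile, -3.46 for one at the 20th and -1.67 on the signals as deposited. On floored signals the average dark effect was 1.25 ± 0.53 and did not pass (adjusted p 0.12). It passed for a floor at the 20th percentile, without a floor and after spike-in centring. Over 7 alternatives that adjusted p lay between 4.3e-05 and 0.18.

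CML41, a sensor that sits at plasmodesmata and promotes callose there in the response to bacteria, also had its highest signal in wild type in dark. It read 10.1 in dark and 12.3 in light in sfr6, and 30.8 in dark and 13.3 in light in wild type, again with wild type in dark alone over the floor. It was at least 1.39-fold higher in dark in wild type, its response difference was -0.48 on floored signals and -1.48 for a floor at the 20th percentile. Of the 10 genes, 5 had their highest signal on the array of wild type in dark, where 23.0% of all probe sets did. They were AT2G41090, CML30, CML38, CML41 and CML42, all of them sensors. The highest signal of the 3 channels was on a light array, for which no share of all probe sets is given. The 5 of 10 cannot be read as an excess. AT2G41090 was added by name with earlier results known, and CML38 and CML41 entered the 10 only through the array of wild type in dark. The first GAPDH ratio was highest on the same array, at 1.35, and so was that of an actin control pair (1.63 in sfr6 in dark, 1.71 in sfr6 in light, 1.77 in wild type in dark and 1.62 in wild type in light), while the further GAPDH pair was highest in wild type in light. The part of RNA quality in these responses was not tested. Where all 4 signals were over the floor, the response difference was 0.26 for CML42, 0.02 for GLR3.3 and 0.20 for GLR3.6. That of CML30 and GLR3.5 rests on signals raised to the floor, at 0.03 and 0.29, and a floor at the 20th percentile gave 0.29 and 0.74. The median response difference of the 10 genes was 0.03, beside 0.02 for all probe sets, and spike-in centring lowers every such value by 0.29.

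The remaining comparison set sfr6 against wild type within each light condition. AT2G41090 and CML38 were lower in sfr6 in dark, CML30 was lower in sfr6 in both conditions, and GLR3.6 was higher in sfr6 in both, but 0 of the 10 genes passed limma's test for the average effect of sfr6. Over all probe sets 0.417% passed as higher in sfr6 and 0.86% as lower. At an unadjusted p under 0.05 there were 2 genes, CML30 and GLR3.6, beside 19.8% of all probe sets, and without the intensity trend again 0 after adjustment, beside 0.0132%. The median sfr6 effect of the 10 genes was -0.25 on the log2 scale, beside 0.03 for all probe sets. This median cannot be read as a shift of the genes. CML38 and CML41 entered the 10 only through the array of wild type in dark, and AT2G41090 was added by name with earlier results known.

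In dark, AT2G41090 was 3.42-fold lower in sfr6, and CML38 at least 5.63-fold lower. Those were the 2 genes at least 2-fold lower in sfr6 in dark, where 1.54% of all probe sets were. The count cannot be read as an excess: CML38 passed the floor only in wild type in dark, and AT2G41090 was added by name with earlier results known. In light, by contrast, AT2G41090 was 1.56-fold higher in sfr6, both CML38 signals were under the floor, and on floored signals 0 of the 10 genes differed 2-fold in either direction, beside 0.979% of all probe sets higher and 1.67% lower. For CML30 and CML23 only a bound was had there, and as deposited CML30 was 2.04-fold lower and CML23 2.24-fold higher in sfr6. These pairs of arrays have no replicate check.

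CML30 was 1.66-fold lower in sfr6 in dark and at least 1.70-fold lower in light. Its sfr6 signal in dark, 36.7, was about that of wild type in light, 37.7. The average sfr6 effect was -0.75 ± 0.17 (adjusted p 0.086), and it passed when log2 of the signal plus 16 replaced the floor (adjusted p 0.041, the lowest over 7 alternatives, with 0.87 the highest). In that setting 596 of 15121 probe sets passed as lower in sfr6, against 130 with the floor. GLR3.6 was 1.61-fold higher in sfr6 in dark and 1.40-fold higher in light, and both sfr6 signals were above both wild-type signals. Its average effect was 0.58 ± 0.17 (adjusted p 0.14). GLR3.3 went the other way by a smaller factor, 1.26-fold lower in sfr6 in dark and 1.28-fold lower in light (-0.34 ± 0.15, adjusted p 0.28), so the 2 channels that work together in wound signalling lay on opposite sides of wild type on the deposited scale. Spike-in centring adds 0.36 to the difference of sfr6 from wild type in light and 0.08 in dark. On that scale GLR3.6 passed (0.80, adjusted p 0.035, with values up to 0.24 under the other alternatives) and GLR3.3 stood at -0.12. Spike-in centring passed 1380 of 15121 probe sets as higher in sfr6, against 63 on the deposited scale, and gave limma's prior variance infinite weight.

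**Figure D3:**
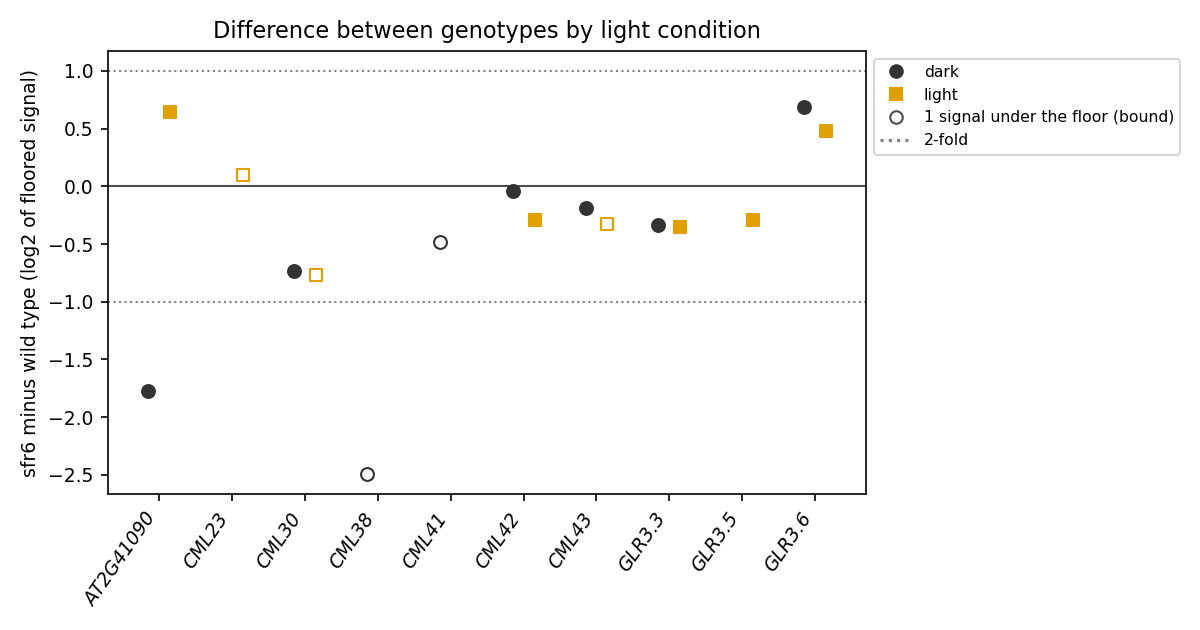
Difference of sfr6 from wild type, as log2 of floored signals, for the same 10 genes, with dark to the left of light, open symbols where 1 of both signals lies under the floor, and dotted lines at 2-fold. A point is left out where both signals lie under the floor. AT2G41090 and CML38 lie past -1 in dark, and no gene lies past 1 or -1 in light on floored signals.

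Other genes of calcium signalling were taken from lists of pathway names. Few had a probe set of their own: 15 IQD genes, whose products bind calmodulin and sit on microtubules and membranes, the calreticulin gene CRT1b, the chloroplast calcium sensor gene CaS and AT1G53210, the sodium-calcium exchanger-like gene NCL. Of the 15 IQD genes, 10 entered the test, and for darkness 0 rose and 2 fell, IQD23 and IQD30, against 15.4% and 17.8% of all probe sets. IQD23 read 18.0 in dark and 44.5 in light in sfr6, and 15.1 in dark and 46.6 in light in wild type, with an average effect of -1.04 ± 0.16 (adjusted p 0.0056). Both genotypes thus had a signal over the floor in light alone. IQD22 was the 1 IQD gene of 10 with a response difference past 2-fold, -1.03. Over all probe sets 1.48% were at least 2-fold lower and 1.08% higher, and 1 gene cannot be read as an excess. It read 34.3 in dark and 29.0 in light in sfr6, and 59.1 in dark and 24.5 in light in wild type. Its highest signal was on the wild-type dark array, as for 23.0% of all probe sets. Those of IQD32 and IQD26 were there too, with response differences of -0.29 and -0.06.

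CRT1b, which stores calcium and folds proteins in the endoplasmic reticulum, fell in dark, with 269 in dark and 457 in light in sfr6 and 234 in dark and 354 in light in wild type (-0.68 ± 0.11, adjusted p 0.0071). NCL read 1478 in dark and 1082 in light in sfr6, and 1502 in dark and 1285 in light in wild type, and it rose (0.34 ± 0.10, adjusted p 0.048). CaS, a thylakoid protein gene, read 1303 in dark and 1173 in light in sfr6, and 993 in dark and 1531 in light in wild type. It was 1.11-fold higher in dark in sfr6, against 1.54-fold lower in dark in wild type, a response difference of 0.78, and the average effect did not pass (-0.24 ± 0.18, adjusted p 0.36). None of these 13 tested genes passed for genotype by limma, and 2 had an unadjusted p under 0.05, IQD31 and CRT1b.

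Genes of touch and early stress were listed because many CML genes are induced with them. Of the 4 with a probe set, WRKY53 was under the floor, and of the other 3, EXO and STZ rose in dark, as did 15.4% of all probe sets. The lists were chosen with earlier results known, so this count cannot be read as an excess. EXO, a brassinosteroid-responsive growth gene, read 506 in dark and 77.4 in light in sfr6, and 1074 in dark and 144 in light in wild type. It rose by a like factor in both genotypes, 6.54-fold in sfr6 and 7.48-fold in wild type. EXO was lower in sfr6 in both conditions (average sfr6 effect -0.99 ± 0.12, adjusted p 0.031), and 0.86% of all probe sets passed as lower. Those 130 calls became 29 after quantile normalization, 3 for a floor at the 60th percentile and 2 without the intensity trend. No alternative is given for EXO itself. STZ, a zinc-finger repressor, read 29.2 in dark and 13.2 in light in sfr6, and 60.2 in dark and 30.2 in light in wild type, the same order of arrays as CML30. With its sfr6 signal in light under the floor, STZ was at least 1.32-fold higher in dark in sfr6. Its average dark effect was 0.70 ± 0.20 (adjusted p 0.043). PHOS32, a stress-phosphorylated protein gene, read 302 in dark and 307 in light in sfr6, and 262 in dark and 266 in light in wild type, so that dark and light were within 1.02-fold in both.

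**Figure D4:**
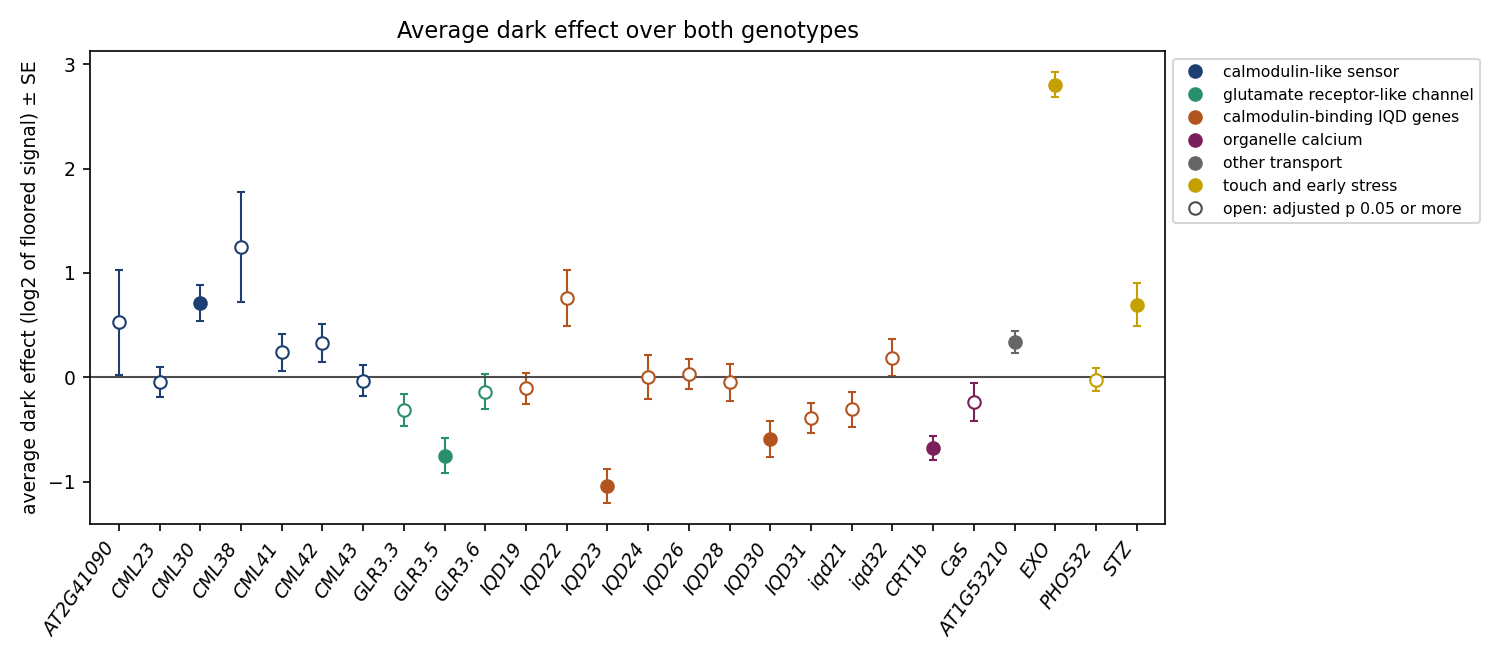
Average dark effect over both genotypes with its SE, as log2 of floored signals from the additive limma fit, for the 10 calcium sensor and channel genes and the other listed genes, filled where the adjusted p is under 0.05. CML30 is filled above 0 and GLR3.5 below it, and the wide bars of AT2G41090 and CML38 go with responses that differ between sfr6 and wild type.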

How the data were processed

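RNA of 4 samples was labelled with biotin and hybridised to 1 ATH1 array each. The deposited values are intensity values made with MAS5, per the submitters' processing notes, with no version given. The table's mean without the lowest and highest 2% was equal on all arrays, so they had been scaled. Detection calls were not used here, and the number of arrays limits the precision.

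From these values the floor was the 40th percentile over 22746 probe sets (64 controls left out), and 15121 probe sets at or over it on some array were fitted with limma 3.58.1 (R 4.3.3) by lmFit and eBayes, with genotype and condition as additive terms, an intensity trend and Benjamini-Hochberg adjusted p under 0.05. The fit has 1 residual degree of freedom, the difference between the genotypes' dark responses. Pairwise differences and that difference carry no test and were counted from 2-fold. Averages of genes with signals under the floor depend on it. The fit was tested on simulated data. Figures used matplotlib 3.10.9.

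Names came from the platform annotation, where 13513 probe sets have 1 gene, 503 have several and 8730 have none, and all 15 members were found in RefSeq (TAIR10.1, names and gene order only). Listed genes were also matched through RefSeq synonyms. Genes were named if called, if 2-fold apart in dark response, or if among the 2 highest of their role by mean signal, and the rest of the 10 were added for completeness. Members and lists were chosen with earlier results of these data known. Alternatives changed the floor, the scaling, the filter and the variance trend.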

Additional observations from a re-analysis of the deposited data

Results flagged for a closer look

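AT2G41090, the calmodulin-like gene, is given a closer look because its dark response ran in opposite directions in the genotypes, lower in dark in sfr6 and higher in dark in wild type. The response in sfr6 minus that in wild type was -2.41 on the log2 scale, from 1 array per group, and the difference was not tested. The gene was added by name with earlier results of these data known, so its large difference is no independent finding.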

How the results depend on the processing

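No paired analysis was possible because each group has 1 array and the groups share a single replicate number. The call of GLR3.5 as lower in dark held in the 6 alternatives that kept the gene, with effects between -1.02 and -0.63. With the floor at the 60th percentile, 4 of the genes were left, AT2G41090, CML30, CML38 and GLR3.3. With only probe sets over the floor on all 4 arrays, another 4 were left, AT2G41090, CML42, GLR3.3 and GLR3.6. In either setting 0 rose and 0 fell for darkness, where 3491 of 10622 and 4754 of 12147 probe sets were called. CML30 thus lost its call under the higher floor and was left out by the filter, and GLR3.5 was in neither setting. Under the filter for all 4 arrays, AT2G41090 was the 1 gene past 2-fold in the response difference. The same held in wild type in dark against light, and in sfr6 against wild type in dark. That filter cannot change these values of AT2G41090. With the floor at the 20th percentile, 2 rose (CML30, CML38), 2 fell (CML23, GLR3.5), and 4 had responses 2-fold lower in sfr6 (with CML23 and CML41). Dark against light, 1 was 2-fold lower in sfr6 (CML23) and 1 in wild type (GLR3.5). In wild type 3 were 2-fold higher in dark, and the same 3 were 2-fold lower in sfr6 in dark (AT2G41090, CML38, CML41). In light 1 was 2-fold higher in sfr6 (CML23) and 1 lower (CML30). Over all probe sets, the floor at the 20th percentile called 5524 of 19958 for darkness, 251 as higher and 344 as lower in sfr6. Without a floor, 2 rose and 2 were lower in sfr6 (CML30 and CML38 in both). That setting called 5946 of 15121 probe sets for darkness, 591 as higher and 596 as lower in sfr6. The main fit called 5009, 63 and 130. No share of all probe sets is given for the 2-fold counts of the alternatives. With spike-in centring, where limma's prior variance took infinite weight, 3 rose (AT2G41090, CML30, CML38), 1 was higher in sfr6 (GLR3.6) and 1 lower (CML38). Over all probe sets that centring called 4405 for darkness, 1380 as higher and 263 as lower in sfr6. On that scale 1 gene was 2-fold higher in sfr6 in light (AT2G41090). The average dark effects newly passing were 0.53 for AT2G41090 and 1.25 for CML38. Quantile normalization, median centring and the fit without a trend moved no count of these genes past 1.5 times. Signals near the floor limit CML23, CML41, CML43 and GLR3.5.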

Other observations

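Relatives that the naming rule leaves out were read as well. The probe set of AT1G76640, the gene next to CML38 that RefSeq also calls CALMODULIN LIKE 39, read 0.685 in dark and 0.614 in light in sfr6, and 1.15 in dark and 0.626 in light in wild type. Signals so far under the floor cannot show whether its transcript went with that of CML38. ATGLR1.2 read 7.46 in dark and 12.2 in light in sfr6, and 13.9 in dark and 11.2 in light in wild type. All these signals were under the floor.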
